A study of Mus musculus with 14 samples.

Results

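The matrix metalloproteinases (MMPs) and their tissue inhibitors (TIMPs) were examined in eyes of newborn mice with a conditional knockout of the chromatin remodelling ATPase Brg1 or of its relative Snf2h. The group was set by gene name, as Mmp2, Mmp3, Mmp8, Mmp9, Mmp10, Mmp13, Mmp14, Timp1, Timp2 and Timp3, and every probe set annotated to 1 of these genes was read. That gave 10 genes, 7 proteases and 3 inhibitors, with 21 of the 22626 probe sets other than controls. The array annotation named 12393 genes in all.

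MMPs are zinc-dependent proteases that cut collagens, laminins, proteoglycans and many cytokines outside the cell. Most are secreted as inactive proenzymes, which other proteases activate, and TIMPs block the active enzymes by binding the catalytic site. In the anterior eye they are known for their part in wound repair, in turnover of basement membrane and in inflammation of the cornea.

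Whole eyes were taken at postnatal day 1, and 50 ng of total RNA per sample was amplified, labelled with biotin and hybridised to 1 of 14 Affymetrix arrays. The Brg1 experiment had 3 Brg1 conditional knockout (cKO) and 3 wildtype (WT) samples, all on a mixed background, and its labels do not name the cells in which Brg1 was deleted. The genotype label of all 3 knockout samples reads Brg1_cKO1, while their titles are numbered 1 to 3. The Snf2h experiment had 4 Snf2h lens-conditional knockout (cKO) and 4 WT samples, all C57BL/6. No promoter driving the deletion is named for either line. Whole eyes hold many cell types in which Snf2h was not targeted, and in such bulk RNA, fewer cells of a type and less RNA per cell cannot be told apart. The series text speaks of biological replicates, but nothing states that the Brg1 samples are separate animals, so the p-values measure only the spread between these samples, which may be technical.

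The samples were first set against their labels. Smarca4, which encodes Brg1, gave log2 changes of 0.05 ± 0.22 (SE) and −0.74 ± 0.30 over 2 probe sets in Brg1 cKO eyes, and Smarca5, which encodes Snf2h, gave −0.50 ± 0.16, −0.19 ± 0.25 and 0.31 ± 0.25 over 3 probe sets in Snf2h cKO eyes. None passed the test, and whether these probe sets lie inside the deleted exons is not known here. Lens fibre markers (9 genes) averaged a log2 level of 7.72 to 10.02 in Brg1 cKO eyes, against 11.22 to 11.4 in Brg1 WT eyes. The same markers averaged 10.06, 10.04, 11.03 and 11.1 in Snf2h cKO eyes, against 10.56 to 11.28 in Snf2h WT eyes. Snf2h cKO replicates 1 and 2 stood closer together than any other pair of replicates, with an SD of the difference of 0.218 against 0.42 to 0.727. Snf2h WT replicate 3 stood apart in the Gapdh control, with 3′ minus 5′ signal of 4.47 on the log2 scale against 0.63 to 1.46 on all other arrays. Its cornified skin and hair follicle markers also averaged 6.43, the top of a Snf2h WT range that began at 4.02.

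Mmp3, Mmp10, Mmp13 and Mmp8 lie in one cluster on chromosome 9, and the sequences upstream of their starts are shown because Mmp3 and Mmp10 were called higher in the Brg1 experiment and Mmp13 and Mmp8 were not. Differences between genes of the cluster were not tested. AP-1, the dimer of Fos and Jun proteins, is a known regulator of several MMP promoters in human and mouse cells. Each sequence below is RefSeq's on GRCm38.p6, the 250 bases before the start, plus strand, with the AP-1 letters TGAGTCA or, on the other strand, TGACTCA in capitals. They are chr9:7445572-7445821 for Mmp3, chr9:7502092-7502341 for Mmp10, chr9:7272264-7272513 for Mmp13 and chr9:7558179-7558428 for Mmp8.
Mmp3: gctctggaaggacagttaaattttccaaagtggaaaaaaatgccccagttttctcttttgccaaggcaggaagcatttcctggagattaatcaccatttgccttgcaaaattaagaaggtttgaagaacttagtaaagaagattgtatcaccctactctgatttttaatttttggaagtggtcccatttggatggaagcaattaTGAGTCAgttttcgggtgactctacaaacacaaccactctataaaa
Mmp10: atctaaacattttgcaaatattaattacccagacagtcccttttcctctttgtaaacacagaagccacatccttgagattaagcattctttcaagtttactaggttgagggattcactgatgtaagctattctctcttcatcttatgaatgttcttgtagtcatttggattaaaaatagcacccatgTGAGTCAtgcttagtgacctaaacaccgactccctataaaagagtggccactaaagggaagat
Mmp13: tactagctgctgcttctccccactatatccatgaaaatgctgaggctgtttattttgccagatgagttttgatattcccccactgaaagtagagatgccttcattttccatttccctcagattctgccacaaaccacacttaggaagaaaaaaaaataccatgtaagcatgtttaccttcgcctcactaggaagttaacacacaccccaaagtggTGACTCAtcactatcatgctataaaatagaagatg
Mmp8: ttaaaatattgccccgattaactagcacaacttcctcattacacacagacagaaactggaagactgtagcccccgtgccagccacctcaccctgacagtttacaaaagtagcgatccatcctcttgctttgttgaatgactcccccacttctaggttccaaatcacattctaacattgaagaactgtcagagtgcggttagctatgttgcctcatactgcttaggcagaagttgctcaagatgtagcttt
The AP-1 letters stood 46 to 40 bases before the start of Mmp3, 63 to 57 before that of Mmp10 and 35 to 29 before that of Mmp13, and the Mmp8 window had none. Of the 10 genes, 8 were matched in the promoter table. The AP-1 letters were found in 3 of these 8 and in 4.46% of all 32851 promoter windows of that length. The TATA letters TATAAA or TTTATA were in the same 3 genes (12.4% of all windows), and the ETS letters AGGAAG or CTTCCT were in 6 of 8 (29.5% of all windows). The matches did not overlap each other, and each is a description of letters only.

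Among the secreted proteases, the stromelysins Mmp3 and Mmp10 were called higher in Brg1 cKO eyes, and no member was called lower. Mmp3 cuts proteoglycans, laminin and fibronectin and activates other proMMPs. Its log2 level was 9.53, 10.6 and 10.52 in Brg1 cKO eyes, against 4.46, 4.28 and 4.59 in Brg1 WT eyes. The knockout arrays lay far above the wildtype arrays, with replicate 1 the lowest of the 3. The change was 5.77 ± 0.30 (SE, n = 3 each), a 54.7-fold higher intensity (adjusted p = 0.000586, limma), and the 7th largest rise among the 22626 probe sets.

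Mmp10, the closest relative of Mmp3, has a similar range of substrates and is known from wound-edge keratinocytes. It read 5.46, 7.45 and 6.84 in Brg1 cKO eyes, against 2.79, 3.56 and 2.77 in Brg1 WT eyes. Again the groups did not overlap and knockout replicate 1 was the lowest of the 3. The change was 3.54 ± 0.50 (SE), or 11.7-fold (adjusted p = 0.0368). This call was lost without knockout replicate 3 (adjusted p = 0.132) and without any single wildtype array (0.116 to 0.212).

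Thus 2 of 21 member probe sets were called higher and 0 lower in Brg1 cKO eyes. Over all probe sets, an adjusted p under 0.05 called 0.349% higher and 0.243% lower. The median change of the member probe sets was 0.282 on the log2 scale, against −0.0102 over all probe sets, and 16 of 21 were above 0. The median was 0.821 for the protease probe sets and 0.00101 for those of the inhibitors. An unadjusted p under 0.05 was reached by 4 member probe sets in the higher direction and 0 in the lower, where 4.33% and 3.73% of all probe sets reached it.

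**Figure D1:**
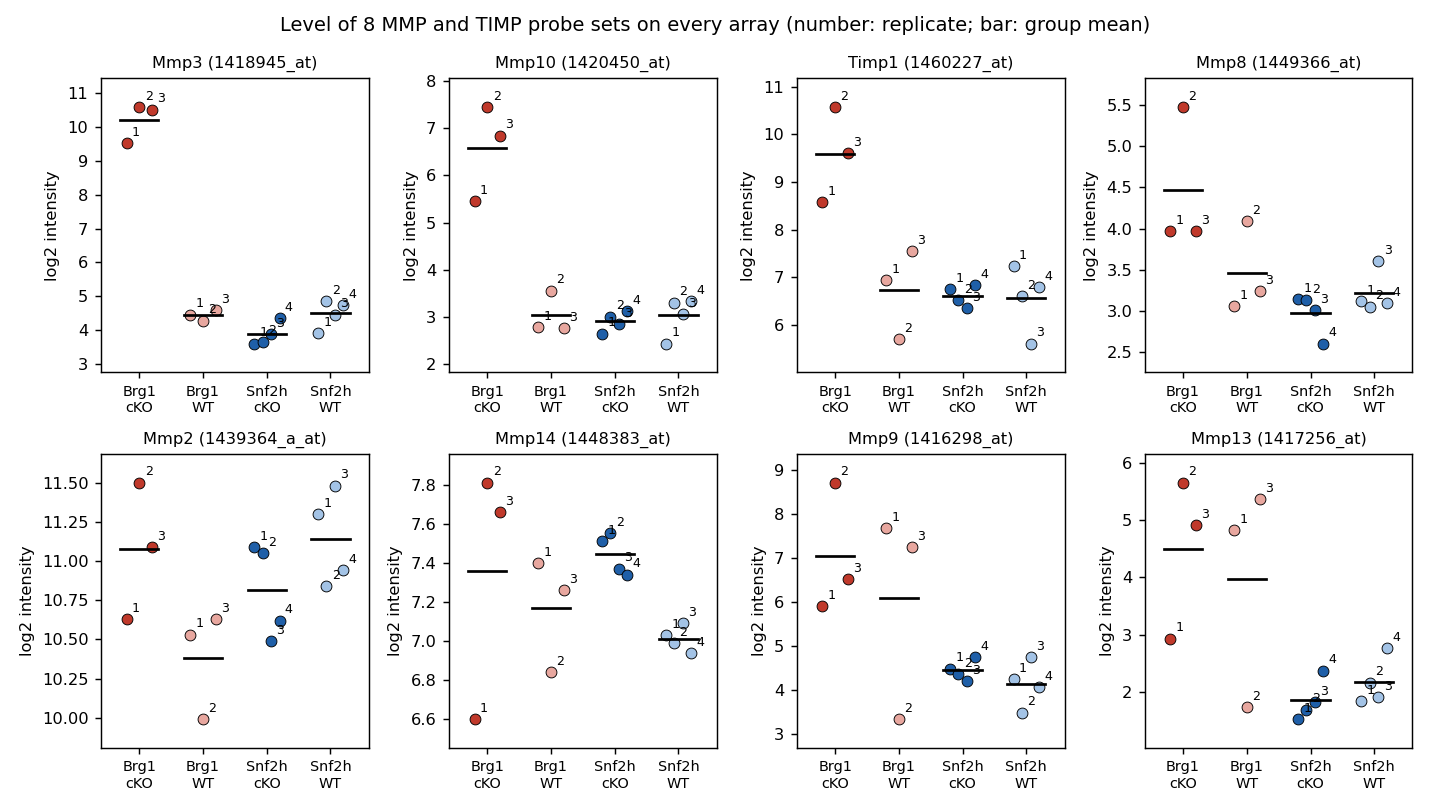
The log2 intensity of 8 member probe sets is plotted for each array (points, numbered by replicate) in the 4 groups, with bars at the group means. The Brg1 cKO arrays lie above all other arrays for Mmp3, Mmp10 and Timp1, while Mmp9 and Mmp13 spread widely within both groups of the Brg1 experiment.

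Mmp8, the collagenase best known from neutrophil granules, read 3.97, 5.48 and 3.97 in Brg1 cKO eyes, against 3.06, 4.09 and 3.24 in Brg1 WT eyes. The groups overlapped, because wildtype replicate 2 exceeded knockout replicates 1 and 3. The change of 1.01 ± 0.46 (SE) did not pass the test (adjusted p = 0.649). The 10 measured neutrophil markers averaged 5.26 to 6.81 in Brg1 cKO eyes, against 4.25 to 4.5 in Brg1 WT eyes. Of these, 2 of 10 were called higher, S100a8 (32.2-fold) and S100a9 (22.3-fold), which keratinocytes also express in wounds. Without wildtype replicate 1 or 2, 0 of the 10 were called. The other 8 were not called, and 5 of them had changes above 0: the chemokine receptor Cxcr2 gave 1.95 (adjusted p = 0.519), the cytokine receptor Csf3r 1.57 (0.257), Ngp 0.96 (0.761), Lcn2 0.94 (0.723) and Camp 0.67 (0.76). Mpo gave −0.01 (adjusted p = 0.994), Elane −0.02 (0.988) and Ltf −0.47 (0.822). The part of neutrophils in the Mmp8 and Mmp3 values was not tested.

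The gelatinase Mmp9 and the collagenase Mmp13 varied more within the groups of the Brg1 experiment than between them. Mmp9 cuts denatured collagen and basement membrane collagen, and both enzymes are known from remodelling bone and cartilage as well as from wounds. Mmp9 (1416298_at) read 5.9, 8.71 and 6.52 in Brg1 cKO eyes, against 7.68, 3.33 and 7.25 in Brg1 WT eyes. Mmp13 read 2.93, 5.66 and 4.92 in Brg1 cKO eyes, against 4.83, 1.74 and 5.37 in Brg1 WT eyes. For both genes wildtype replicate 2 was the lowest and knockout replicate 1 the next lowest, and the groups overlapped.

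The Mmp9 change was 0.95 ± 1.21 (SE, adjusted p = 0.894), and without wildtype replicate 2 it was −0.42. The second Mmp9 probe set, 1448291_at, read 5.66, 7.62 and 5.72 in Brg1 cKO eyes, against 5.97, 3.63 and 6.29 in Brg1 WT eyes, a change of 1.04 ± 0.80 (adjusted p = 0.803). For Mmp13 the change was 0.53 ± 1.04 (adjusted p = 0.936), and it was −0.59 without wildtype replicate 2. Without knockout replicate 2 the Mmp13 change was −0.05. The sign of the Mmp9 (1416298_at) and Mmp13 changes thus rests on single arrays.

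A list of 11 bone and osteoclast genes was chosen after the values were seen and was not tested as a set. None of the 11 was called in Brg1 cKO eyes (adjusted p = 0.677 to 0.988, limma). They averaged 4.09, 5.36 and 4.57 in Brg1 cKO eyes, against 5.42, 3.93 and 5.67 in Brg1 WT eyes. As for Mmp9 and Mmp13, wildtype replicate 2 was the lowest and knockout replicate 1 the next lowest. Of the 11 genes, 7 had their lowest wildtype level on replicate 2 and their lowest knockout level on replicate 1. Mepe, Ocstamp, Calcr and Oscar did not: Mepe was highest on wildtype replicate 2 (3.24), Oscar lowest on knockout replicate 2 (2.9), Calcr lowest on wildtype replicate 1 (2.86), and Ocstamp stayed between 2.7 and 3.02 on all 6 arrays. Ibsp and Acp5 are given as examples of the 7. Ibsp, a bone matrix sialoprotein, read 1.93, 7.74 and 3.78 in Brg1 cKO eyes, against 8.6, 2.22 and 8.04 in Brg1 WT eyes. Acp5, the tartrate-resistant acid phosphatase of osteoclasts, read 4.28, 7.02 and 5.45 in Brg1 cKO eyes, against 6.73, 3.06 and 7.5 in Brg1 WT eyes. In the Snf2h experiment Ibsp also split the arrays, with 5.75, 5.96, 1.97 and 2.36 in Snf2h cKO eyes and 5.4, 2.59, 2.33 and 2.73 in Snf2h WT eyes. The mean of the 11 genes ran only from 3.43 to 4.17 over the arrays of that experiment. There Mmp13 stayed between 1.52 and 2.37 in Snf2h cKO eyes and between 1.84 and 2.76 in Snf2h WT eyes. Of all probe sets, only 0.844% had a lower group mean than Mmp13 in Snf2h cKO eyes and 1.88% in Snf2h WT eyes. At levels so low a split of Mmp13 may not be visible. The part of bone in the Mmp9 and Mmp13 values was not tested.

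**Figure D2:**
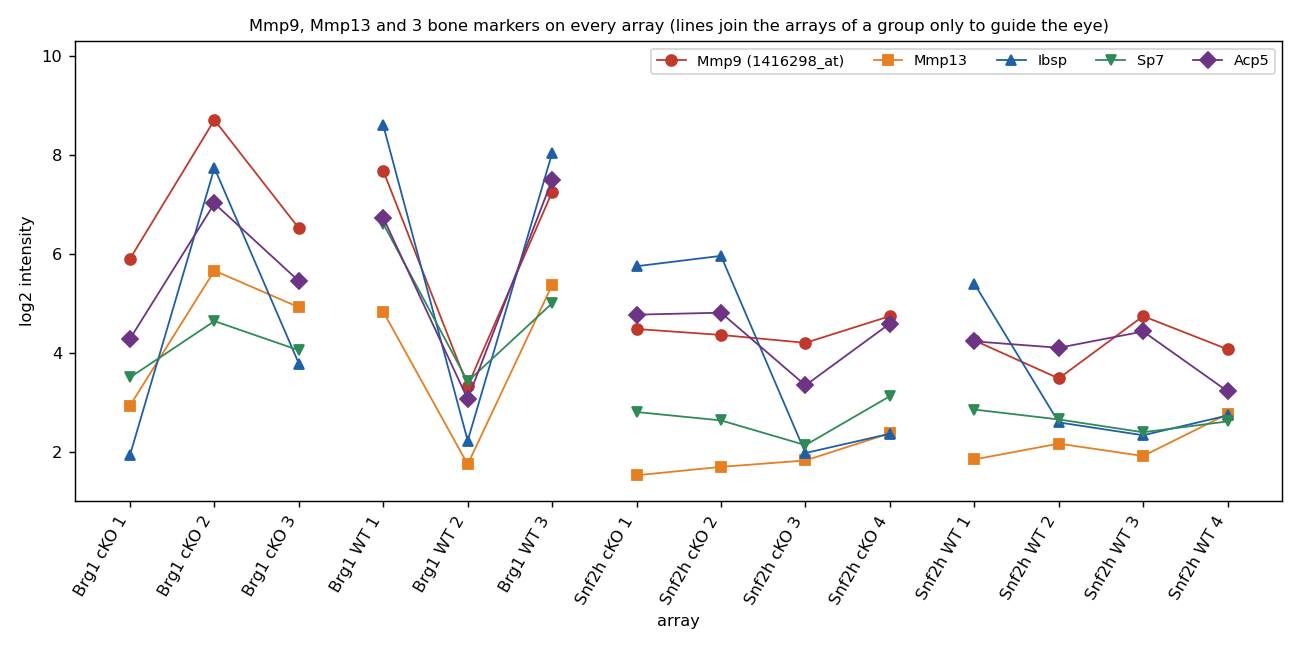
The log2 intensity of Mmp9, Mmp13 and the bone genes Ibsp, Sp7 and Acp5, picked from the 11 after their values were seen, is drawn for each of the 14 arrays, where lines only join the arrays of a group. In the Brg1 experiment all 5 genes are low on wildtype replicate 2 and lower on knockout replicate 1 than on knockout replicates 2 and 3.

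Mmp2, the gelatinase of stromal cells, was not called in either experiment. Its probe set 1439364_a_at read 10.63, 11.5 and 11.09 in Brg1 cKO eyes, against 10.53, 9.99 and 10.63 in Brg1 WT eyes. The lowest knockout value and the highest wildtype value were equal at 2 decimals, and the change was 0.69 ± 0.28 (SE, adjusted p = 0.581). The other probe set, 1416136_at, gave 0.65 ± 0.33 (adjusted p = 0.706) with overlapping groups. The Mmp2 changes in Snf2h cKO eyes were −0.33 on 1439364_a_at (adjusted p = 0.416) and −0.37 on 1416136_at (adjusted p = 0.449). The 10 measured stromal markers averaged 10.05 to 10.85 in Brg1 cKO eyes, against 10.33 to 10.79 in Brg1 WT eyes, with 0 called.

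Mmp14, the membrane-anchored protease that activates proMMP2 at the cell surface, read 6.6, 7.81 and 7.66 on 1448383_at in Brg1 cKO eyes, against 7.4, 6.84 and 7.26 in Brg1 WT eyes. These groups overlapped, and the change was 0.19 ± 0.34 (SE, adjusted p = 0.928). The second probe set, 1416572_at, gave 0.04 ± 0.32 there (adjusted p = 0.983), again with overlapping groups. In the Snf2h experiment 1448383_at read 7.51, 7.55, 7.37 and 7.34 in Snf2h cKO eyes, against 7.03, 6.99, 7.09 and 6.94 in Snf2h WT eyes. All 4 Snf2h cKO arrays lay above all 4 Snf2h WT arrays, as for 6.36% of all probe sets, and the change of 0.43 ± 0.12 did not pass the test (adjusted p = 0.157). On 1416572_at, Mmp14 read 4.55, 4.64, 5.42 and 4.45 in Snf2h cKO eyes, against 4.15, 3.67, 3.37 and 4.63 in Snf2h WT eyes. There the groups overlapped, because wildtype replicate 4 exceeded knockout replicates 1 and 4, and the change was 0.81 ± 0.30 (adjusted p = 0.231). Without Snf2h WT replicate 3, the change on 1448383_at was 0.46 (adjusted p = 0.194). With Snf2h cKO replicates 1 and 2 averaged into 1 sample it was 0.40 (adjusted p = 0.356).

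Of the inhibitors, Timp1 gave the largest difference. It is the secreted inhibitor that cells make in response to injury and inflammatory cytokines, and it blocks most soluble MMPs. Timp1 read 8.58, 10.58 and 9.61 in Brg1 cKO eyes, against 6.95, 5.71 and 7.55 in Brg1 WT eyes. All knockout arrays lay above all wildtype arrays, as for 7.16% of all probe sets. The change was 2.85 ± 0.60 (SE), or 7.22-fold, and did not pass the test (adjusted p = 0.151). In a single fit over all 14 arrays, whose spread is shared between experiments, the same change had an adjusted p of 0.0119. This was the only 1 of 16 alternatives in which Timp1 passed, and without single arrays its adjusted p was 0.0855 to 0.442. In the Snf2h experiment Timp1 read 6.75, 6.53, 6.35 and 6.84 in Snf2h cKO eyes, against 7.23, 6.61, 5.61 and 6.8 in Snf2h WT eyes. The Snf2h cKO arrays lay within the wildtype range, at a change of 0.06 ± 0.31 (adjusted p = 0.936).

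Timp2, which both blocks MMPs and helps Mmp14 to activate proMMP2, had 6 probe sets that did not move together. In Brg1 cKO eyes their changes were 0.21 (1454677_at), 0.02 (1433662_s_at), 0.00 (1460287_at), −0.18 (1450040_at), −0.21 (1437081_at) and −0.39 (1420924_at), with 0 called. In Snf2h cKO eyes they ran from −0.49 to 0.75, with 4 above 0 and 0 called. Between these ends stood 1454677_at (−0.10), 1420924_at (0.04), 1437081_at (0.24) and 1433662_s_at (0.45). The lowest of the 6, 1460287_at, read 9.14 to 9.85 in Snf2h cKO eyes, against 9.87 to 10.33 in Snf2h WT eyes, with a change of −0.49 ± 0.19 (SE, adjusted p = 0.24). These groups did not overlap, as for 4.22% of all probe sets in the lower direction. The highest, 1450040_at, read 4.73 to 5.63 in Snf2h cKO eyes, against 3.96 to 4.8 in Snf2h WT eyes, with a change of 0.75 ± 0.24 (adjusted p = 0.19). Without Snf2h WT replicate 3 these changes were −0.47 (adjusted p = 0.349) and 0.60 (adjusted p = 0.304). Probe sets of the same gene thus gave opposite signs in the same samples.

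The Gapdh 3′ minus 5′ signal, a measure of how far RNA and its copies reach towards the 5′ end, was 0.97, 0.84, 0.77 and 0.99 in Snf2h cKO eyes, against 1.31, 1.46, 4.47 and 1.09 in Snf2h WT eyes. All Snf2h cKO values were lower than all Snf2h WT values, and the part of this measure in the Timp2 values was not tested. In the Brg1 experiment it was 0.63 to 0.96 in Brg1 cKO eyes, against 0.68 to 0.74 in Brg1 WT eyes, and the groups overlapped.

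**Figure D3:**
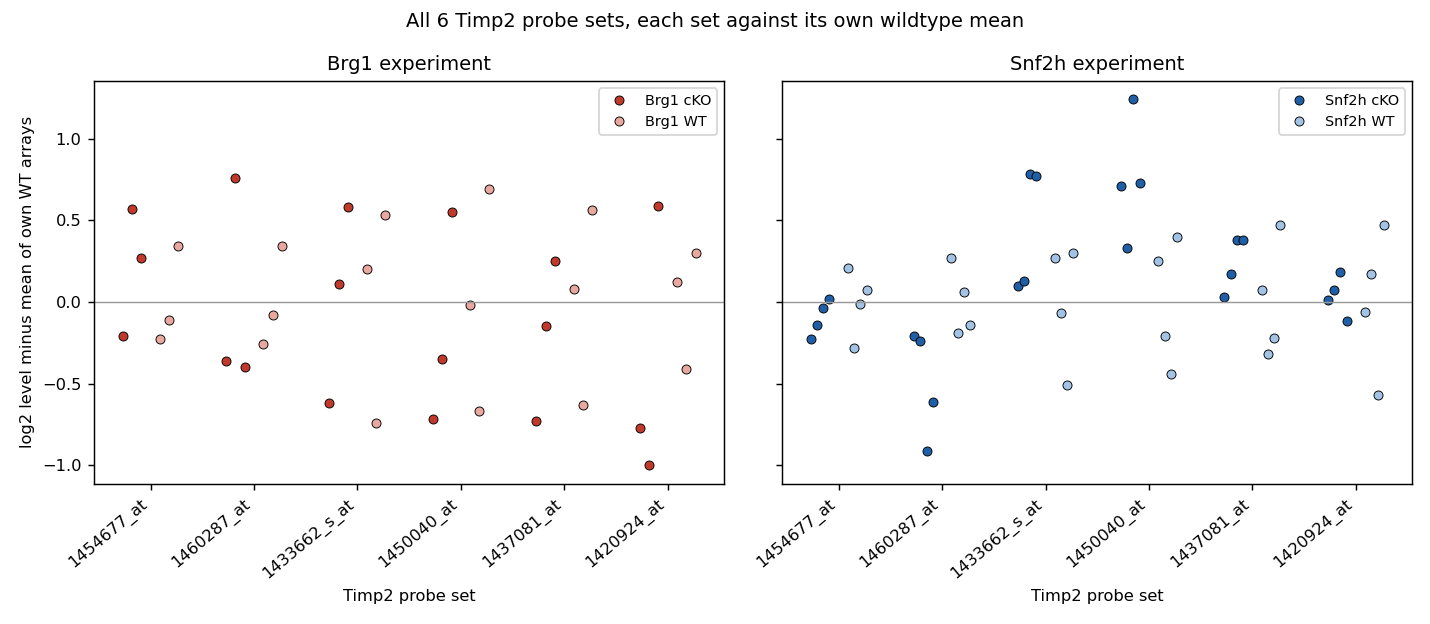
The log2 level of each of the 6 Timp2 probe sets, minus the mean of the wildtype arrays of the same experiment, is plotted with a point per array for the Brg1 experiment (left) and the Snf2h experiment (right), with knockout arrays left of wildtype arrays. In the Snf2h experiment the knockout points of 1460287_at lie below all wildtype points of that probe set, while the groups overlap for the other 5 probe sets.

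Timp3, the inhibitor that is bound to the extracellular matrix and is a component of Bruch's membrane, had 4 probe sets. In Brg1 cKO eyes their changes were 0.29 (1419088_at), 0.28 (1419089_at), −0.08 (1449334_at) and −0.15 (1449335_at). The same probe sets gave 0.39, −0.11, −0.38 and −0.22 in this order in Snf2h cKO eyes. None was called in either experiment, and all of their groups overlapped.

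In Snf2h cKO eyes, 0 of 21 member probe sets were called, against 3 of all probe sets (0.0133%). The median member change was −0.106, against −0.0368 over all probe sets, and 9 of 21 were above 0. Among the proteases not described for these eyes so far, Mmp10 gave −0.13, Mmp13 −0.31 and Mmp8 −0.25, and Mmp9 gave 0.31 (1416298_at) and −0.41 (1448291_at). By an unadjusted p under 0.05, limma gave 3 higher and 2 lower, where 9.8% and 7.89% of all probe sets passed that mark. These were both Mmp14 probe sets and Timp2 1450040_at in the higher direction, and Mmp3 and Timp2 1460287_at in the lower. Mmp3 read 3.6, 3.66, 3.88 and 4.35 in Snf2h cKO eyes, against 3.91, 4.86, 4.46 and 4.74 in Snf2h WT eyes. These groups overlapped, and the change was −0.62 ± 0.24 (SE, adjusted p = 0.245).

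**Figure D4:**
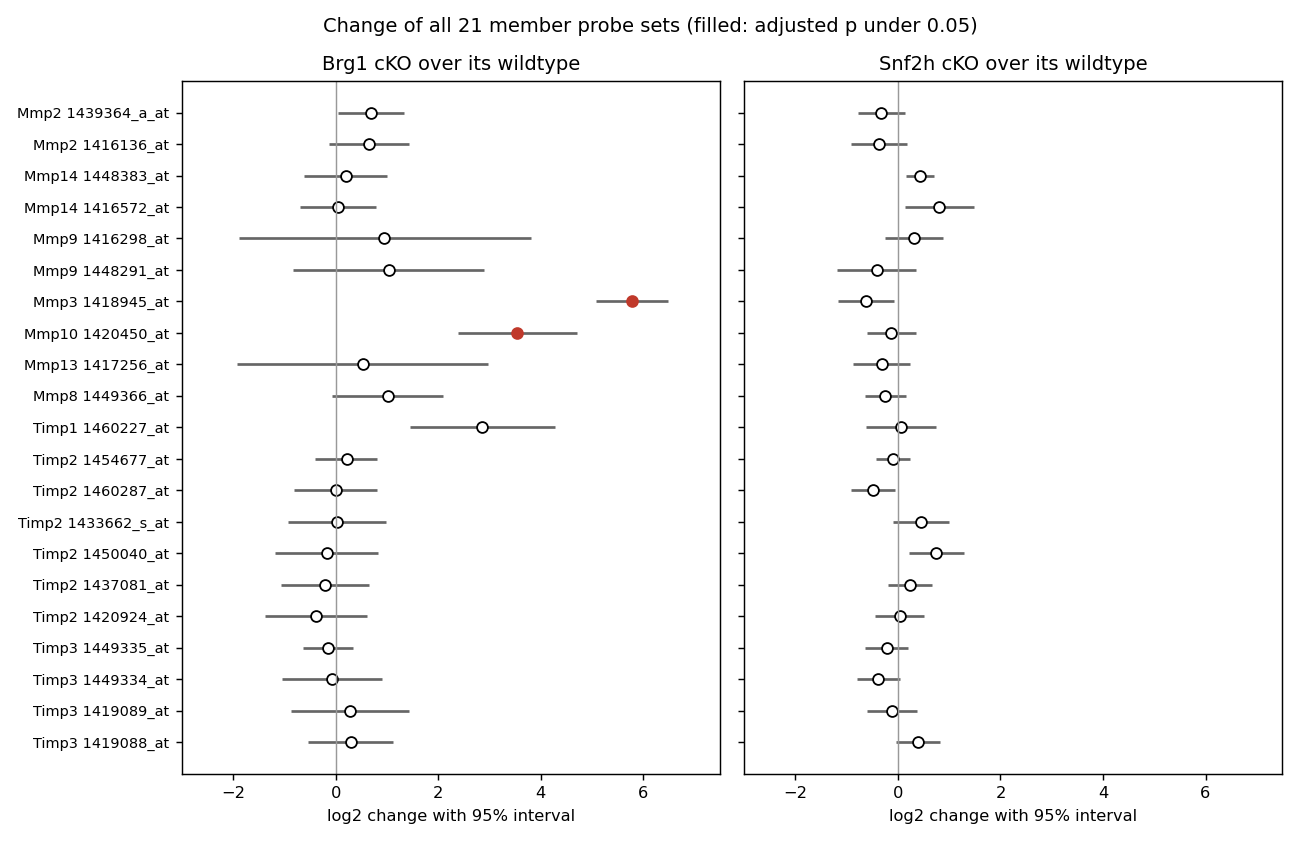
The log2 change of each of the 21 member probe sets is plotted with its 95% interval, for Brg1 cKO over Brg1 WT eyes (left) and Snf2h cKO over Snf2h WT eyes (right), and filled points passed an adjusted p of 0.05. Mmp3 at 5.77 and Mmp10 at 3.54 are the only filled points.

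Whether the knockouts differed in their effects was tested with a contrast over all 14 arrays, whose spread is shared between experiments. The difference was called for 2 of 21 member probe sets, both in the direction of a larger effect in Brg1 cKO eyes, where 0.517% of all probe sets were called in that direction and 0.141% in the other. The difference was 6.39 ± 0.40 (SE) for Mmp3 (adjusted p = 6.1e-06) and 3.67 ± 0.54 for Mmp10 (adjusted p = 0.00476). For Timp1 it was 2.79 ± 0.69 (adjusted p = 0.105), for Mmp8 1.26 ± 0.48 (adjusted p = 0.3) and for Mmp2 (1439364_a_at) 1.02 ± 0.35 (adjusted p = 0.241), and none of these passed the test. The experiments also differ in strain, and the labels name the lens for the Snf2h deletion but no cells for the Brg1 deletion. The shares of strain, of the deleted cells and of anything else that differs between the experiments cannot be told apart from that of the deleted gene.

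The chromosome 9 cluster holds, in RefSeq's order, Mmp13, Mmp12, Mmp1b, Mmp3, Mmp1a, Mmp10, Mmp8, Mmp27, Mmp20 and Mmp7. Of these 10 genes, 9 were measured, and Mmp12, Mmp3 and Mmp10 were called higher in Brg1 cKO eyes. Mmp12, the elastase of macrophages, read 5.28, 6.8 and 5.35 in Brg1 cKO eyes, against 2.03, 2.01 and 2.03 in Brg1 WT eyes. The wildtype arrays were nearly equal, but at levels that cannot be told from background, so their small spread may not measure replication. The knockout arrays all lay well above the wildtype arrays, at a change of 3.79 ± 0.39 (SE), or 13.8-fold (adjusted p = 0.013). The SE and adjusted p rest in part on that small spread. Without any single wildtype array the Mmp12 call was lost (adjusted p = 0.0739 to 0.0981). The other 6 measured genes of the cluster were not called. Beside Mmp13 and Mmp8, whose values are given with the secreted proteases, Mmp1b gave 0.11 ± 0.15 (adjusted p = 0.897), Mmp1a 0.06 ± 0.15 (adjusted p = 0.948), Mmp20 −0.55 ± 0.49 (adjusted p = 0.829) and Mmp7 −0.29 ± 0.18 (adjusted p = 0.763). Called genes thus stood next to uncalled ones in the cluster. RefSeq's table holds 2 promoter windows for Mmp12, and 1 of them has the AP-1 letters, 44 to 38 bases before the start. Of the 10 measured macrophage markers, 1 was called higher, the Fc receptor gene Fcgr1 (6.61-fold), and this call was lost without Brg1 cKO replicate 3 or any single wildtype array. Together these markers averaged 7.1 to 7.76 in Brg1 cKO eyes, against 6.51 to 6.93 in Brg1 WT eyes. The part of macrophages in the Mmp12 value was not tested.

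Genes around the MMP system were read from 7 lists, a gene counted once by its brightest probe set. Over all 12393 genes, 0.484% were called higher and 0.331% lower in Brg1 cKO eyes, and the median change was 0.02. Among the other MMP family members and inhibitors, 1 of 13 was called higher (Mmp12) and 0 lower, with a median of 0.13. Mmp19, which cuts basement membrane components, gave 1.35 (adjusted p = 0.213), Mmp11 gave 0.49 (adjusted p = 0.487) and Mmp24 gave 0.45 (adjusted p = 0.632). Among ADAM and ADAMTS proteases, 1 of 15 was called higher and 0 lower, with a median of 0.20. This was Adam8, a membrane protease of myeloid cells, at 2.51 ± 0.36 (SE), or 5.69-fold (adjusted p = 0.0389). The Adam8 call was lost without Brg1 cKO replicate 3 (adjusted p = 0.0998) or any single wildtype array (0.173 to 0.195). Adam28, a membrane protease known from lymphocytes, read 3.55 to 3.85 in Brg1 cKO eyes, against 4.59 to 4.8 in Brg1 WT eyes, and its change of −0.99 did not pass the test (adjusted p = 0.0661). The aggrecan-cutting protease Adamts4 gave 0.51 (adjusted p = 0.598) and Adam9 gave −0.29 (adjusted p = 0.742).

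In the plasminogen system and the activators of proMMPs, 0 of 16 were called in either direction, with a median of 0.06. Serpinb2, an inhibitor of plasminogen activators, read 3.48 to 5.48 in Brg1 cKO eyes, against 1.69 to 1.97 in Brg1 WT eyes. Its change of 2.83 did not pass the test (adjusted p = 0.0654). The elastolytic cathepsin Ctss gave 1.57 (adjusted p = 0.154), the urokinase receptor Plaur 1.39 (adjusted p = 0.585) and the mast cell tryptase Tpsb2 −1.23 (adjusted p = 0.708).

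Of the cytokines and growth factors that regulate MMP genes, 2 of 14 were called higher and 0 lower, with a median of 0.82. These were Il1b, which induces Mmp3 in fibroblasts, at 6.47 (adjusted p = 0.0063), and Il1rn, the antagonist of the interleukin-1 receptor. Il1rn read 7.9 to 9.36 in Brg1 cKO eyes, against 2.81 to 4.6 in Brg1 WT eyes, a change of 5.01 ± 0.52 (SE), or 32.2-fold (adjusted p = 0.013). The Il1b call was lost without wildtype replicate 1 (adjusted p = 0.0515), and the Il1rn call without knockout replicate 3 (adjusted p = 0.0681) or wildtype replicate 2 (adjusted p = 0.0836). Il6 gave 2.22 (adjusted p = 0.204) and Tgfb1 0.95 (adjusted p = 0.125), and neither passed the test.

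Of the AP-1, ETS and other factors of MMP promoters, 0 of 16 were called, with a median of 0.33. The AP-1 subunit Junb read 4.92 to 5.21 in Brg1 cKO eyes, against 3.94 to 4.32 in Brg1 WT eyes, at a change of 0.95 ± 0.18 (SE, adjusted p = 0.0992). The AP-1 subunit Fosl1 gave 0.52 (adjusted p = 0.49), Cebpb 0.54 (adjusted p = 0.698) and the inhibitor of NF-kB Nfkbia 0.36 (adjusted p = 0.717). Matrix substrates had 0 of 21 called and a median of −0.03. Tenascin C (Tnc), a matrix glycoprotein of wounds, gave 1.51 ± 0.43 (adjusted p = 0.314), and the collagens Col1a1 and Col2a1 gave −0.22 (adjusted p = 0.787) and −0.40 (adjusted p = 0.745). Nid1, which links laminin to collagen in basement membranes, gave −0.41 (adjusted p = 0.772). Binding partners and receptors had 0 of 13 called and a median of 0.19. The clearance receptor Lrp1 gave 0.69 (adjusted p = 0.597), and Lcn2, which binds Mmp9 in human neutrophils, gave 0.94 (adjusted p = 0.723). The collagen receptor Mrc2 gave 0.63 (adjusted p = 0.762) and the matrix protein Thbs1 gave 0.72 (adjusted p = 0.814).

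**Figure D5:**
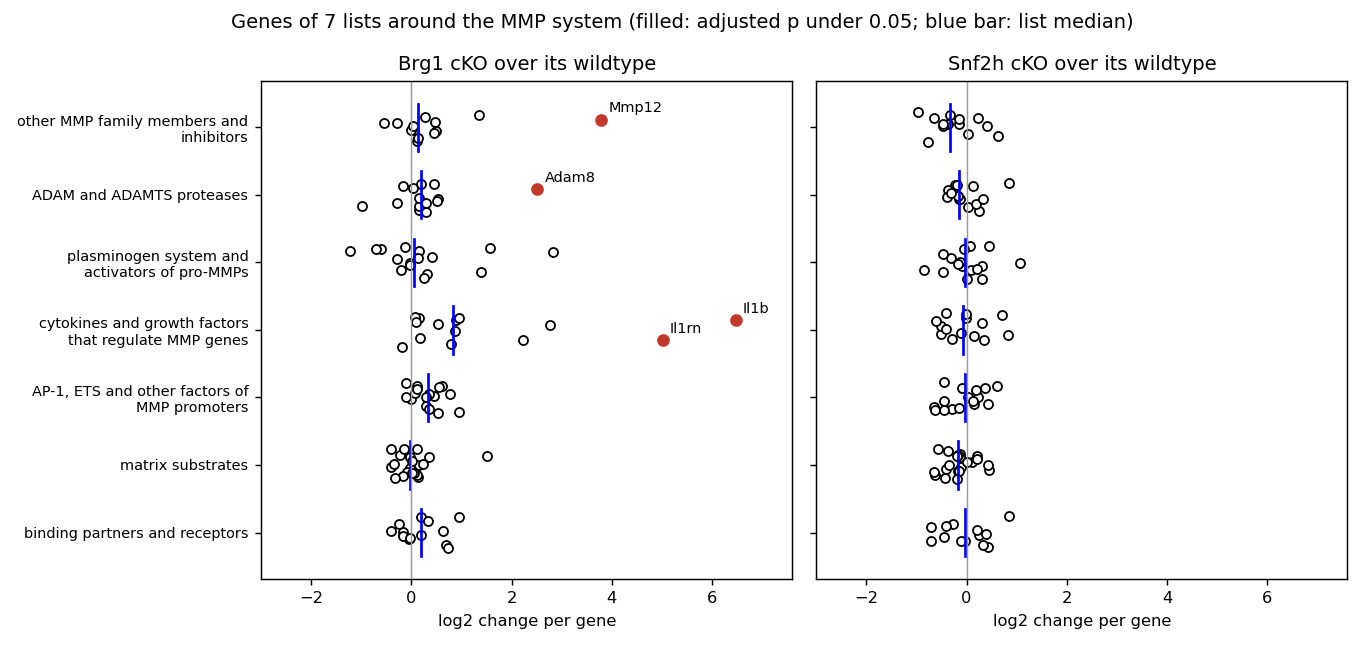
The log2 change of each measured gene of 7 lists around the MMP system is plotted for Brg1 cKO over Brg1 WT eyes (left) and Snf2h cKO over Snf2h WT eyes (right), with blue bars at list medians and filled points for an adjusted p under 0.05. Mmp12, Adam8, Il1b and Il1rn are filled on the left, and no point is filled on the right.

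In Snf2h cKO eyes, 0 genes of these 7 lists were called, against 0 of all 12393 genes called higher and 1 called lower (0.00807%). St14, the membrane protease matriptase of epithelia, gave 1.07 (adjusted p = 0.0532). It read 7.71 to 7.99 in Snf2h cKO eyes, against 6.68 to 6.84 in Snf2h WT eyes. Mmp19 gave −0.77 (adjusted p = 0.159), Mmp17 gave 0.62 (adjusted p = 0.165) and Nid1 gave −0.57 (adjusted p = 0.149). The MMP inducer Bsg gave 0.82 (adjusted p = 0.193), Il17a −0.41 (adjusted p = 0.194) and the mast cell chymase Cma1 −0.85 (adjusted p = 0.21). The transcription factors Ets1 and Elk3 each gave −0.46 (adjusted p = 0.192 and 0.231). Adam8 gave 0.84 (adjusted p = 0.23), Adam12 −0.38 (adjusted p = 0.282), Col4a2 −0.44 (adjusted p = 0.172), Kdr 0.33 (adjusted p = 0.281) and Itgb3 −0.42 (adjusted p = 0.293). None of these values passed the test.

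Markers of wound-edge keratinocytes, a cell type known to make Mmp10, were also read. Of 9 measured, 7 were called higher in Brg1 cKO eyes, against 0.484% of all 12393 genes, and 2 were not called. Sprr1b (49.1-fold) and Slpi (19.8-fold) were among the 7. The mean log2 level of the 9 markers was 8.04, 8.62 and 8.77 in Brg1 cKO eyes, against 4.82, 4.96 and 4.69 in Brg1 WT eyes. Without any single wildtype array, 3 of the 9 were called. Their part in the Mmp3 and Mmp10 values was not tested. Endothelial markers (10 genes, 0 called) averaged 7.15 to 8.3 in Brg1 cKO eyes, against 7.12 to 7.78 in Brg1 WT eyes. Retina markers (8 genes) and pigment cell markers (7 genes) also had 0 called. Of the 8 corneal epithelium markers, 2 were called lower (Krt12 and Ehf), of the 9 lens fibre markers 2 were called lower (Gja3 and Dnase2b), and of the 13 cornified skin markers 1 was called higher (Sprr3). The lens fibre count was 7 without Brg1 cKO replicate 2 and 0 without any other single array, and the cornified skin count was 0 without any single wildtype array.

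The pattern of each of 4 members was compared with that of all 12393 genes over the 14 arrays, after each level was set against the mean of its own wildtype arrays. The arrays share groups and strain, so Pearson's r serves as a description. Nearest to Mmp3 were Mx1 (r = 0.993), Slfn4 (0.989), Clec4d (0.988), Cxcl2 (0.983) and Saa3 (0.982). Nearest to Timp1 were Plek (r = 0.964), Ms4a4c (0.961), Oasl1 (0.954), Crem (0.952) and Fyb (0.949). The 5 genes nearest to Mmp3 gave changes of 3.58 to 6.34 on the log2 scale in Brg1 cKO eyes.

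Nearest to Mmp2 were Icam1 (r = 0.967), Tns1 (0.962), Sod3 (0.957), Igf1 (0.953) and Serping1 (0.95). Nearest to Mmp9 were Prrc1 (r = 0.907), Ppp1r15a (0.902), Loxl4 (0.856), Mmp13 (0.846) and Gys1 (0.835). In these 4 lists of 5 genes, Mmp13 was the only member to appear. Between members, r was 0.97 for Mmp3 with Mmp10 and 0.89 for Mmp3 with Timp1.

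The members also spread more between replicates than most probe sets did. The median SD of the 21 member probe sets was 0.655 in Brg1 cKO, 0.47 in Brg1 WT, 0.251 in Snf2h cKO and 0.353 in Snf2h WT eyes. Over all probe sets it was 0.281, 0.208, 0.198 and 0.306 in the same groups. The gap was wider in the Brg1 experiment.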

How the data were processed

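RNA of 14 newborn eye samples was measured on Affymetrix arrays. The authors deposited 1 linear intensity per probe set and array. RMA is named in the submitters' processing notes, without a version, and nothing states whether both experiments were normalised together. The log2 of these values was taken, with no offset and no further scaling. No detection calls were used, so dim probe sets, whose changes are compressed, were kept, and the number of arrays limits the precision. The 64 control probe sets were left out. The array annotation gave 1 gene to 20380 probe sets, several to 691 and none to 1555.

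Each knockout was compared with its own wildtype by limma 3.58.1 (lmFit, eBayes, two-sided) in R 4.3.3 over 22626 probe sets, with 0.05 as the threshold for the adjusted p (Benjamini-Hochberg). The difference between the knockout effects was a contrast over 4 group means. Adjusted p-values of list genes are those of the fit on all probe sets. The scripts were tested on simulated data. Levels of different probe sets were set against each other to choose a gene's brightest one and in the Gapdh control. They were also compared in the filter on dim probe sets and for the place of Mmp13 among all probe sets. Levels were averaged over probe sets for the marker and bone lists and for the gene means among the alternatives.

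All members were named with every probe set, and from each list the called count, up to 4 genes of smallest p in the Brg1 comparison and up to 2 in the Snf2h comparison. Of the marker lists, called genes were named, or examples of them, and all measured genes of the neutrophil list, added after their values were seen. The 5 genes of highest Pearson r were named for Mmp3, Mmp9, Mmp2 and Timp1. Members and lists were chosen with earlier results of these data known. Promoter sequences are RefSeq's, on GRCm38.p6. Alternatives were other normalisations, a filter on dim probe sets, other treatments of a gene's probe sets, other limma settings, a replicate block and leaving out each array.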

Additional observations from a re-analysis of the deposited data

Results flagged for a closer look

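The effect of the Brg1 knockout minus that of the Snf2h knockout, on the log2 scale, passed an adjusted p of 0.05 (limma, all 14 arrays) for these genes among the members, the genes named from the 7 lists and the named cell type markers. It was 6.39 for Mmp3 (adjusted p = 6.1e-06), 3.67 for Mmp10 (0.00476), 3.76 for Mmp12 (0.00056) and 2.12 for Mmp19 (0.0277). In the lists around the MMP system it was 6.49 for Il1b (adjusted p = 6.68e-05), 5.51 for Il1rn (0.000242), 2.83 for Serpinb2 (0.0154), 2.73 for Il6 (0.0463) and −1.2 for St14 (0.0433). Mmp19, Serpinb2, Il6 and St14 were not called within either experiment. The contrast shares its spread between the experiments, so its adjusted p can be lower at the same change. Serpinb2 had the same 2.83 within the Brg1 experiment (adjusted p = 0.0654).

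Of the cell type markers, the difference was 5.03 for S100a8 (adjusted p = 0.0108), 4.44 for S100a9 (0.00918) and 3.08 for Fcgr1 (0.0218). For the keratinocyte and skin genes it was 5.49 for Sprr1b (adjusted p = 1.16e-05), 4.67 for Slpi (0.000493) and 2.11 for Sprr3 (0.0103). It was −4.12 for Krt12 of the corneal epithelium (adjusted p = 0.000187) and −3.04 for the lens connexin gene Gja3 (0.0321).

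Single arrays stood far from the other 3 of their group by Dixon's test for 2 probe sets, both in Snf2h WT eyes. Mmp8 (1449366_at) read 3.6 on replicate 3, against 3.05 to 3.12 on the others. Timp3 (1449334_at) read 7.92 on replicate 1, against 7.59 to 7.64 on the others. Of 42 sets of 4 arrays examined, 2 were marked this way, and chance marks about 1 in 20.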

How the results depend on the processing

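In Brg1 cKO eyes Mmp3 was called under all 16 alternatives (change 5.58 to 6.12, adjusted p up to 0.0114), and the difference between knockout effects for Mmp3 under all 24. The filter on dim probe sets kept Mmp3 only through its Brg1 cKO arrays, so its calls there are no separate support. The count of called members in Brg1 cKO eyes, 2 as reported, was 1 with the filter on dim probe sets, which leaves Mmp10 out, and 1 when a change beyond 1 on the log2 scale was tested (treat; Mmp10 adjusted p = 0.232). It was 3 in 1 fit over all 14 arrays (Timp1 added) and 1 to 2 when single arrays were left out. For the difference it was 1 with the filter, 1 with treat and 2 to 3 without single arrays, where Timp1 was added without Brg1 cKO replicate 1 (3.3, adjusted p = 0.0312). In Snf2h cKO eyes it was 0 throughout. Over all probe sets, the 134 calls in Brg1 cKO eyes became 28 (treat) to 294 (1 fit over all arrays), with 69 under the filter and 26 to 204 without single arrays. The 3 calls in Snf2h cKO eyes became 0 to 513 (array weights), with 34 under the filter and 0 to 280 without single arrays, and the 149 of the difference became 33 (treat), 50 (filter), 89 (Snf2h cKO 1 and 2 averaged) and 62 to 297 without single arrays. Deviations of same-numbered arrays from their group means gave r of 0.0639, 0.0846 and 0.129 in the Brg1 experiment. In the Snf2h experiment r was −0.228 to 0.071. With so few arrays per group, these values cannot show whether the numbers pair samples. With the replicate number as a block, members called were 2, 0 and 2 in Brg1, Snf2h and the difference, and calls over all probe sets 42, 0 and 76. The block also ended the calls of Adam8 (adjusted p = 0.103) and Il1rn (0.0651). Of the uncalled named list genes, Serpinb2 passed under 6 of 15 alternatives in Brg1 cKO eyes and St14 under 8 of 19 in Snf2h cKO eyes. In Brg1 cKO eyes Mmp19 passed under 2 of 16, Il6 under 2 of 15, Adam28 and Junb under 1 of 15 each, and Ctss under 1 of 16. Nid1 passed under 1 of 19 in Snf2h cKO eyes.

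Only members that were not called changed sign. In Brg1 cKO eyes these were Timp2 1454677_at (−0.09) and Timp3 1449335_at (0.09) by gene means, and Timp2 1460287_at with quantile normalisation over all arrays or within experiments (−0.01 each) and array weights (−0.19). In Snf2h cKO eyes they were Mmp9 1416298_at (−0.05) and Timp2 1454677_at (0.15) by gene means, Mmp10 with either quantile normalisation (0.07), and Timp1 with quantile normalisation within experiments (0) and array weights (−0.08). The cause was not tested. Without single arrays, Brg1 changes crossed 0 for Mmp14 (−0.04 to 0.57 and −0.24 to 0.35), Mmp9 1416298_at (−0.42 to 1.75), Mmp13 (−0.59 to 1.31), Timp2 1460287_at (−0.38 to 0.2), 1433662_s_at (−0.34 to 0.34), 1450040_at (−0.54 to 0.17) and 1437081_at (−0.53 to 0.07), and Timp3 1449334_at (−0.33 to 0.3) and 1419089_at (−0.03 to 0.77). In Snf2h they did for Timp1 (−0.26 to 0.28), Timp2 1420924_at (−0.15 to 0.19) and Timp3 1419089_at (−0.25 to 0.02). Without detection calls, low levels such as those of Mmp12 in wildtype eyes cannot be told from background, and their folds may be too small.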
